A study of Homo sapiens with 4 samples.

Results

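The RNA contacts of SAF-A were examined in 6 genes of the Wnt/β-catenin pathway in the human colorectal carcinoma line HCT116. The genes were TCF7L2, CTNNB1, APC, AXIN2, LGR5 and LEF1. SAF-A (hnRNP U) is a nuclear scaffold protein that binds RNA and DNA, and CLIP-seq maps its contacts by ultraviolet crosslinking (254 nm, 4000 J/m2), immunoprecipitation and sequencing of the bound RNA. The groups were 2 pull-down libraries, made with a mouse monoclonal SAF-A antibody, and 2 input libraries, made from the same kind of cleared lysate without immunoprecipitation. All 4 came from HCT116 cells with wild-type SAF-A, and RNA of both kinds was cut from the same size range of a membrane. The labels do not say that replicates were separate cultures, so the spread between them may be technical.

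The measured items were peaks, short intervals of RNA that the authors listed for each library with a strand and a score. A peak belonged to a gene when its midpoint lay inside the gene span (GRCh37) on the gene strand. This rule selected 473 of 278959 listed peaks (0.17%), with 168 and 238 in the pull-down libraries and 20 and 47 in the inputs (replicates 1 and 2 in each case). TCF7L2 held 430 of them and the other 5 genes held 43. The lists had 96061 and 111256 peaks in the pull-downs, against 29386 and 42256 in the inputs. Because of that difference, counts are also given per 10000 listed peaks. RNA levels were not measured in these libraries, so a gene with few peaks may be one whose RNA is scarce or one whose RNA is rarely listed.

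In the Wnt pathway, a secreted ligand stops a destruction complex from marking β-catenin for degradation, and β-catenin then enters the nucleus and switches on genes through DNA-binding partners. APC and AXIN2 belong to that destruction complex, and AXIN2 is itself a target of the pathway. CTNNB1 encodes β-catenin, and HCT116 is known to carry an activating mutation in one allele of it. TCF7L2 and LEF1 are DNA-binding partners of β-catenin, and TCF7L2 is the main one in intestinal epithelium. LGR5 is a receptor for R-spondins, which strengthen the signal, and marks intestinal stem cells.

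TCF7L2 lay on chromosome 10 (plus strand), from 114710009 to 114927437, a span of 217.4 kb. LEF1 lay on chromosome 4 (minus strand), from 108968701 to 109090112 (121.4 kb). CTNNB1 lay on chromosome 3 (plus strand), from 41236328 to 41301587. That span of 65260 bases is longer than the 40939 bases of the RefSeq gene, so it takes in sequence outside the RefSeq model. APC lay on chromosome 5 (plus strand, 112043195 to 112181936, 138.7 kb) and AXIN2 on chromosome 17 (minus strand, 63524681 to 63557765, 33.1 kb). LGR5 lay on chromosome 12 (plus strand), from 71833550 to 71980090 (146.5 kb). No exon or intron positions in the build of the files were used here, so peaks are described by their distance from the gene start.

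TCF7L2 stood apart from the other 5 genes in every library. It held 153 and 223 peaks in the pull-downs, against 16 and 38 in the inputs. Per 10000 listed peaks these were 15.9 and 20.0 in the pull-down libraries and 5.44 and 8.99 in the inputs. Both pull-downs lay above both inputs, with means of 17.99 ± 2.91 and 7.22 ± 2.51 (SD, n = 2 each), a ratio of 2.49. Per length, TCF7L2 held 70.4 and 103 peaks per 100 kb in the pull-down libraries and 7.36 and 17.5 in the inputs. The mean over the genome, for 100 kb of 1 strand, was 1.55 and 1.80 in the pull-down libraries and 0.474 and 0.682 in the inputs. TCF7L2 was therefore dense in every library, at 45.4 and 57.1 times the mean of its list in the pull-down libraries and 15.5 and 25.6 times in the inputs.

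The other 5 genes, with 505 kb of sequence in all, together listed 15 peaks in each pull-down, against 4 and 9 in the inputs. This was 1.56 and 1.35 per 10000 listed peaks in the pull-down libraries and 1.36 and 2.13 in the inputs, so the groups overlapped. CTNNB1 had 4 and 2 peaks in the pull-down libraries and 1 and 5 in the inputs. APC had 3 and 5 in the pull-down libraries and 1 in each input. AXIN2 had the same counts as APC in all 4 libraries. LEF1 had 4 and 2 in the pull-down libraries and 1 in each input, and LGR5 had 1 in each pull-down, against 0 and 1 in the inputs. At such numbers the order of these 5 genes is within counting error, and per 10000 listed peaks the groups overlapped in each of them. In lists cut to equal length, APC had 2 peaks in each pull-down, against 1 in each input. CTNNB1 there had 0 in each pull-down, against 1 and 3 in the inputs, and the other 3 genes overlapped.

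**Figure D1:**
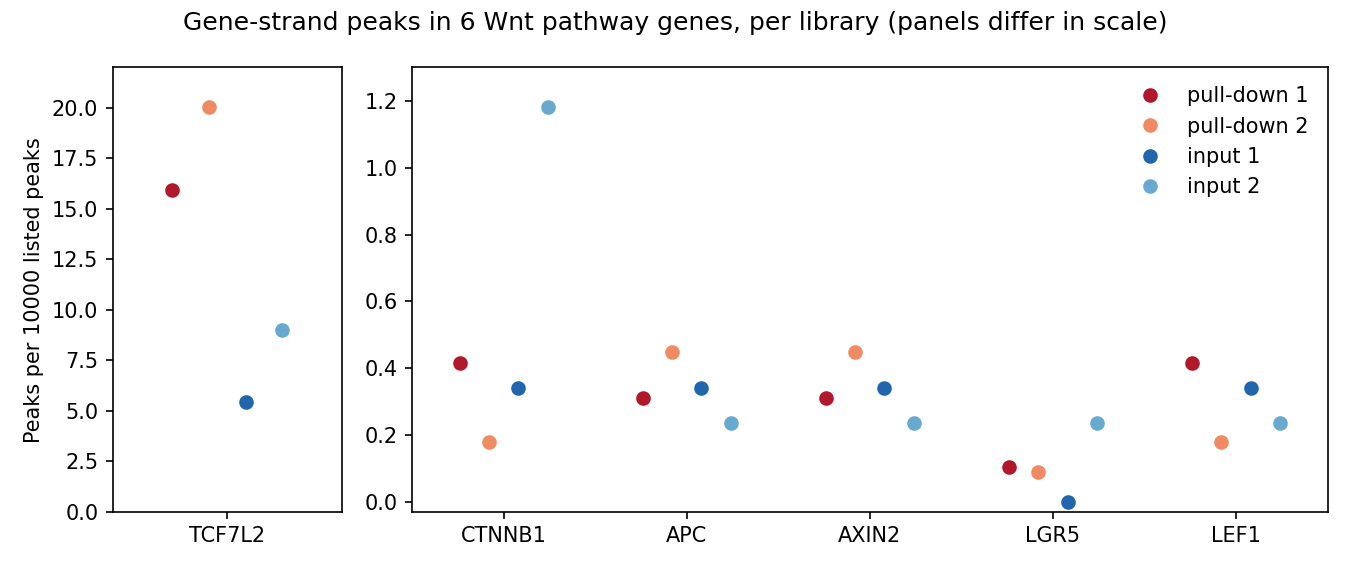
Peaks on the gene strand per 10000 listed peaks (vertical axis, different scale in each panel) in each of the 6 genes, with 1 point per library. The TCF7L2 points are at 15.9 and 20.0 in the pull-downs, above 5.44 and 8.99 in the inputs, while the points of the other 5 genes overlap between the groups.

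The share of listed peaks in TCF7L2 was tested together with all windows of 100 kb on 1 strand in 1 limma fit across the genome. Features needed a mean of at least 1 peak per 10000 over the 4 libraries, which 598 passed. TCF7L2 was the only one of the 6 genes to do so. Its log2 ratio, pull-down over input, was 1.34 (SE 0.31, on the log2 scale of peaks per 10000 plus 0.1), with a limma adjusted p of 0.0056. Calls were common in this fit. Of the tested features, 15.9% were called higher in the pull-down libraries and 78.1% were called in either direction, so the call alone does not set TCF7L2 apart. The median tested feature had a log2 ratio of -1.28, and TCF7L2 ranked 74 of 598 by its ratio. That median moved with the minimum. It was -0.64 and -1.25 at minimum means of 0.5 and 2 per 10000, -0.43 at a mean of 5 raw peaks and 0.46 with no minimum. Both pull-downs lay above both inputs in 20.4% of the 598 tested features, TCF7L2 among them, and below both in 70.7%. With 2 against 2 libraries, the two-sided exact permutation p of its share was 0.33, the smallest that test allows.

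The direction for TCF7L2 depended on which peaks were counted. Among narrow peaks alone (under 50 bases) the log2 ratio was 2.90 (limma adjusted p = 0.0076). Among wide peaks alone it was -0.37 (limma adjusted p = 0.56), and in lists cut to equal length it was -0.64 (limma adjusted p = 0.15). The median tested feature was negative in all of these settings. Among narrow peaks it was at -0.87, and TCF7L2 ranked 27 of 301. Among wide peaks it was at -0.66, and TCF7L2 ranked 1057 of 2529. In equal lists it was at -0.64, and TCF7L2 ranked 367 of 743, near the middle. Equal lists kept pull-down peaks with a score of at least 30 and 33, but input peaks with a score of at least 10 and 13. In them TCF7L2 held 10 and 13 peaks in the pull-downs, against 16 and 20 in the inputs.

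**Figure D2:**
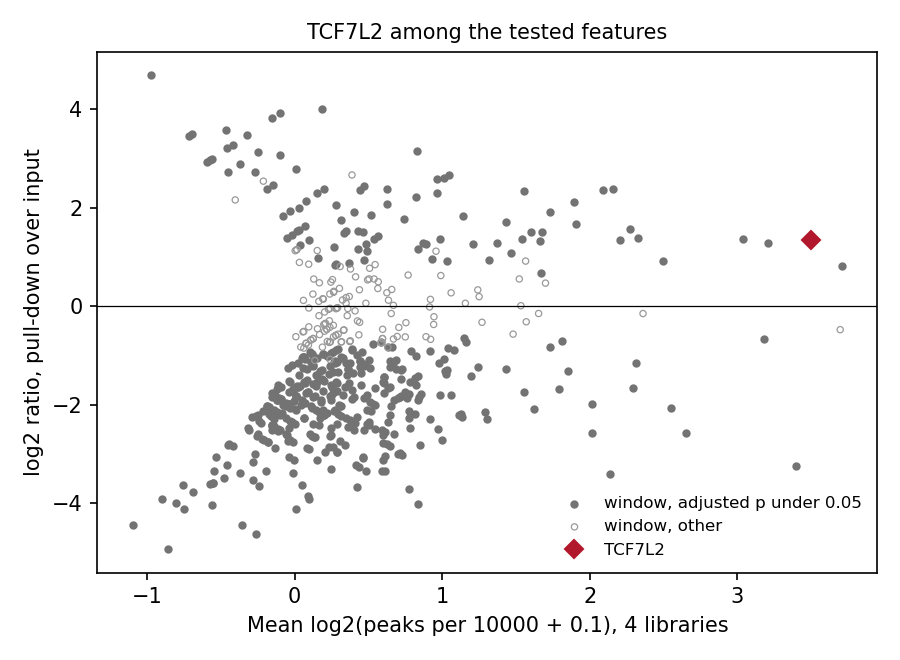
The log2 ratio of pull-down over input (vertical axis) against the mean log2 peaks per 10000 plus 0.1 (horizontal axis) for the 598 tested features, with filled points for windows at a limma adjusted p under 0.05. TCF7L2, the diamond at a ratio of 1.34, lies at the end with most peaks, among windows with ratios on both sides of 0. Positions on the horizontal axis are per feature, and TCF7L2 (217.4 kb) is longer than the windows (100 kb). Windows on its strand that overlap it have ratios of 0.91, 2.35 and -0.59, in order from its start.

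Narrow and wide peaks of TCF7L2 behaved differently. Narrow peaks numbered 126 and 190 in the pull-downs, against 3 and 13 in the inputs. Per 10000 listed peaks this was 15.1 ± 2.8 in the pull-down libraries and 2.05 ± 1.45 in the inputs (SD, n = 2 each), a ratio of 7.37. Wide peaks numbered 27 and 33 in the pull-down libraries and 13 and 25 in the inputs. Per 10000 listed peaks they were at 2.89 ± 0.11 in the pull-downs, below 5.17 ± 1.06 in the inputs (SD, n = 2 each), a ratio of 0.559. The groups did not overlap in either class, and the two-sided exact permutation p was 0.33 for each, the smallest possible.

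The share of wide peaks within TCF7L2 was thus 17.6% (95% Wilson interval 12.4 to 24.5) and 14.8% (10.7 to 20.1) in the pull-downs. In the inputs it was 81.2% (57.0 to 93.4) and 65.8% (49.9 to 78.8). In the whole lists, wide peaks made up 16.2% and 19.2% of the pull-down lists, against 22.1% and 26.6% of the input lists. The pull-down peaks of TCF7L2 were wide about as often as those of their lists, and its input peaks were wide more often than those of theirs. In lists cut to equal length, the share of wide TCF7L2 peaks differed between the groups by 1.68 percentage points, pull-down minus input, against -57.3 points in the whole lists. Even so, TCF7L2 peaks were longer than the typical peak in all 4 libraries. Their median width was 30 and 26 bases in the pull-downs, where the lists had 15 in each, against 88 and 58 bases in the inputs, where the lists had 14 and 16.

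The scores of TCF7L2 peaks were low in every library. The score is the authors' value, of unstated meaning, and whether scores are comparable between lists is not known. It is used to rank and cut lists, and scores of single sites are printed for each library. The median was 13 and 14 in the pull-downs, whose lists had a median of 19 each, against 11 and 13 in the inputs, whose lists had 17 each. Scores of 10 to 14 were held by 60.1% and 55.2% of TCF7L2 peaks in the pull-downs, against 34.0% and 35.2% in the whole lists. At the other end, 2 and 5 of the pull-down peaks and 0 of the peaks of either input scored at least 50. Most of the many TCF7L2 peaks were therefore low-scoring for their list.

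Wide peaks of TCF7L2 scored higher than narrow ones in the pull-downs, with medians of 20 and 26 against 13 in each replicate. In the whole lists the order was the other way round, with a median of 14 for wide and 20 for narrow peaks in each pull-down. This order was shared by other dense stretches. Of 28498 spans as long as TCF7L2 on 1 strand, 23 outside the gene held at least 50 peaks in both pull-downs. Over these 23 the median score of wide minus narrow peaks ran from 1 to 198.5 in pull-down replicate 1 (median 6.5, TCF7L2 7). In replicate 2 it ran from -5.5 to 28 (median 7, TCF7L2 13).

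**Figure D3:**
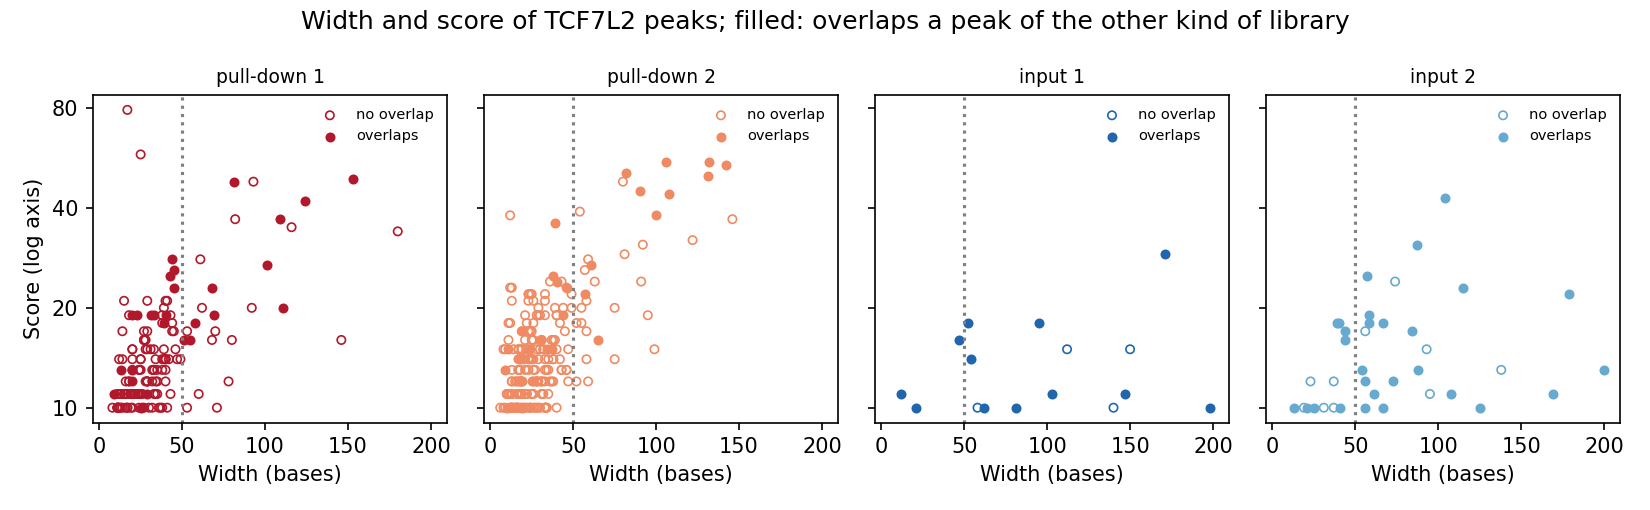
Score (vertical log axis) against width in bases (horizontal axis) for each TCF7L2 peak, 1 panel per library, with filled points for peaks that overlap a peak of the other kind of library and a dotted line at 50 bases. Pull-down panels are filled mostly by open, narrow points with scores near 10, while most input peaks lie right of the line.

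Among spans of its own length, TCF7L2 was near the top in number of peaks. Its mean of 17.99 peaks per 10000 in the pull-downs was exceeded by 1 of the 28498 spans, which had 20.0. The spans were cut at fixed positions along each chromosome, whereas TCF7L2 was counted over exactly its own span, which favours it in this rank. Among the 23 dense spans, its ratio of mean shares, pull-down to input, of 2.49 lay near the median of 2.77 (range 0.60 to 8.35), and 13 spans had a higher ratio. Its median peak width in the pull-downs was below that of 15 and 14 of the 23 spans. Its median score was below that of 13 spans in replicate 1 and of 6 in replicate 2. These ranks describe the lists, and TCF7L2 had been chosen with its number of peaks known.

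Peaks in TCF7L2 were almost all on the strand of the gene. The gene strand held 96.2% (95% Wilson interval 92.0 to 98.3) and 96.5% (93.3 to 98.2) of the peaks in the pull-downs, with 6 and 8 on the opposite strand. In the inputs it held 88.9% (67.2 to 96.9) and 95% (83.5 to 98.6), with 2 on the opposite strand in each. The intervals overlap, and the exact permutation p was 0.33. The other 5 genes together, with few peaks, showed no clear preference. Their gene strands held 15 peaks in each pull-down, where the opposite strands held 14 and 13. In the inputs the gene strands held 4 and 9 and the opposite strands 7 and 5. The share on the gene strand was 51.7% (34.4 to 68.6) and 53.6% (35.8 to 70.5) in the pull-down libraries and 36.4% (15.2 to 64.6) and 64.3% (38.8 to 83.7) in the inputs. Every interval includes an even division.

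Pull-down peaks ran along nearly the whole of TCF7L2. Of 22 bins of 10 kb, 21 and 22 held a peak in the pull-down libraries and 10 and 17 in the inputs. The densest bin in both pull-downs was from 100 to 110 kb after the start, with 16 and 20 peaks. In both inputs it was the first bin, with 4 and 5. The longest stretch without a peak was 12.6 and 7.74 kb in the pull-downs, against 53.5 and 36.1 kb in the inputs. The inputs' longest gaps overlapped each other, from 147.4 to 200.9 kb and from 164.8 to 200.8 kb after the start.

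The first 10% and the last 10% of the gene together held 16.3% and 17.5% of its peaks in the pull-downs, against 56.2% and 36.8% of input peaks. The median position was 45.7% and 46.7% of the length in the pull-downs, against 27.2% and 34.6% in the inputs. The groups did not overlap, and the exact permutation p for the median position was 0.33. The stretch from 40% to 50% of the length held 26 and 36 peaks in the pull-downs, and that from 50% to 60% held 24 and 34. The inputs listed 2 and 3 peaks in the first of these stretches and 0 and 5 in the next. The first 10% alone held 6 and 9 input peaks, the most of any such stretch in either input. The last 10% held 3 and 5, and in input replicate 2 that was no more than in several inner stretches. Among narrow peaks alone the median positions overlapped between the groups, at 43.9% and 46.4% in the pull-downs, against 0.235% and 53.4% in the inputs. The input values rest on only 3 and 13 narrow peaks.

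Peaks were fewer before the start of the gene than inside it, and they thinned towards its end and almost ceased after it. The first 20 kb of the gene held 18 and 28 peaks in the pull-downs, against 6 and 9 in the inputs. From 200 to 220 kb after the start there were 4 and 7 in the pull-downs, against 3 and 5 in the inputs. The stretch of equal length after TCF7L2 held 2 peaks on the same strand in each pull-down and 1 in each input. The stretch of equal length before it held 59 and 74 peaks on that strand in the pull-downs, against 0 and 4 in the inputs. On the opposite strand the preceding stretch held 3 in each pull-down and 1 and 2 in the inputs. The last 60 kb before the start held 21 and 31 peaks in the pull-downs, against 0 and 2 in the inputs, and the last 20 kb held 2 and 5 against 0 in each input. From 100 to 60 kb before the start, each bin of 20 kb held at most 1 peak in either pull-down, so the upstream peaks were not 1 unbroken run. In the RefSeq order of genes on GRCh38, VTI1A, which encodes a protein of vesicle transport, is the nearest protein-coding gene before TCF7L2, and VTI1A is read in the same direction. The non-coding genes LOC103344931 and LINC02935 lie between them. Which of these transcripts the upstream peaks belong to was not assigned.

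**Figure D4:**
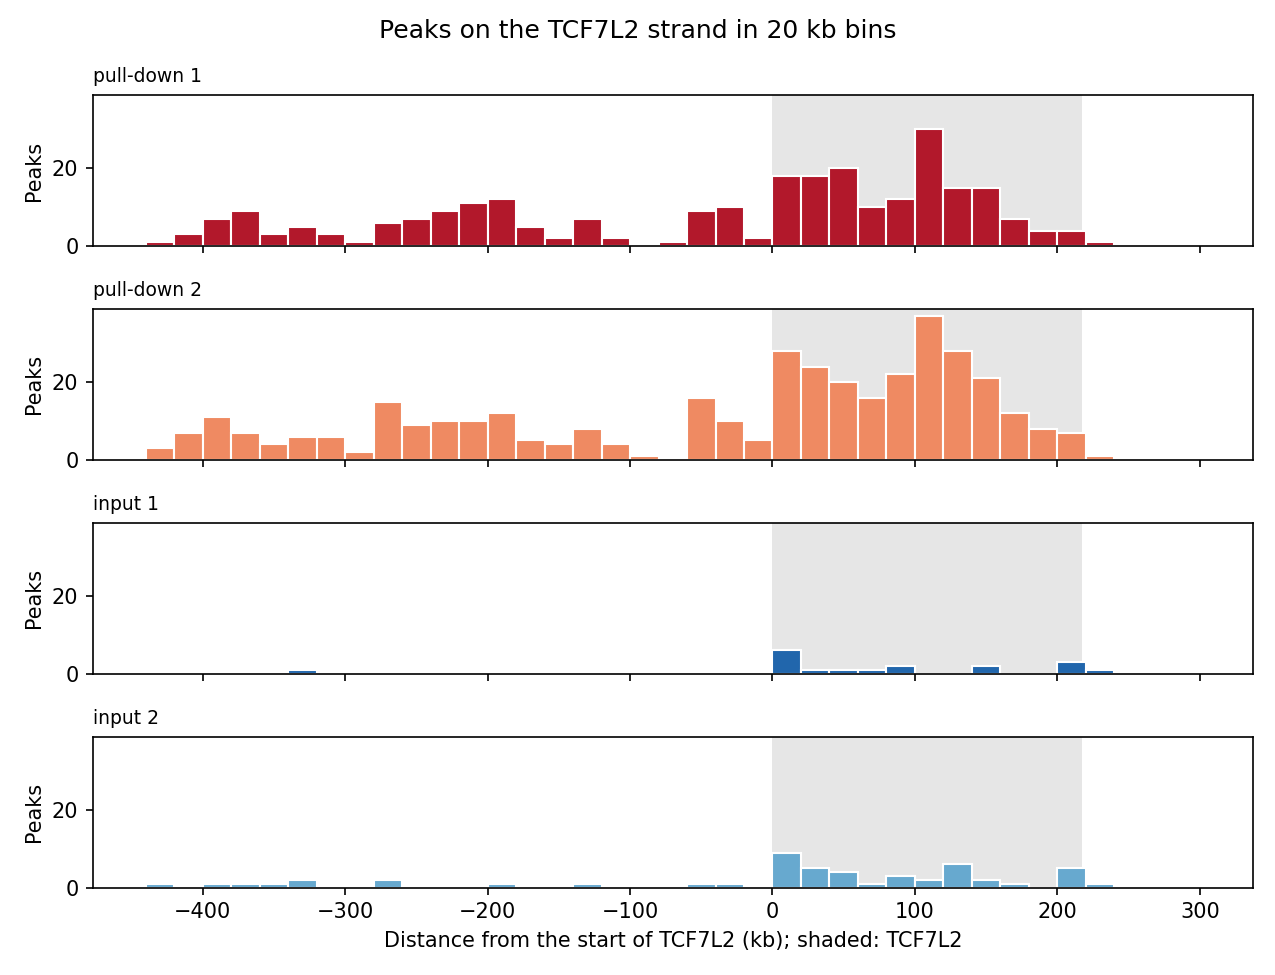
Number of peaks on the TCF7L2 strand in bins of 20 kb (vertical axis) by distance from the gene start in kb (horizontal axis), 1 panel per library, with the gene shaded. Both pull-downs have peaks along the gene, up to 30 and 37 in the bin from 100 to 120 kb. Before the start they have lower, separate groups of peaks, with at most 1 peak per bin from -100 to -60 kb. The inputs reach at most 6 and 9, in the first bin of the gene.

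Between the replicates, 58.8% (95% Wilson interval 50.9 to 66.3) of the TCF7L2 peaks that pull-down replicate 1 listed were found again in replicate 2. In the other direction, 41.3% (35.0 to 47.8) did so. In the whole lists these shares were 65.6% and 56.7%, so the share in TCF7L2 was lower in both directions, with the interval reaching the list's share in the first. Wide peaks were found again in 20 of 27 and 19 of 33 cases and narrow ones in 70 of 126 and 73 of 190. Of the TCF7L2 pull-down peaks, 17.6% (12.4 to 24.5) and 13% (9.21 to 18.1) overlapped a peak of either input. In the whole pull-down lists it was 29.9% and 26.6%. Without input replicate 2, the TCF7L2 shares were 7.19% and 4.48% and those of the whole lists 20.27% and 17.96%. Of the TCF7L2 input peaks, 12 of 16 and 28 of 38 overlapped a peak of either pull-down, which is 75.0% (50.5 to 89.8) and 73.7% (58.0 to 85.0). The whole input lists had 71.0% and 67.7%, inside those intervals. In lists cut to equal length, 30% and 53.8% of the TCF7L2 pull-down peaks overlapped an input peak, against 53.1% and 51.8% of all pull-down peaks in those cut lists. These shares rest on 10 and 13 TCF7L2 peaks.

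The peaks that both pull-downs listed formed 90 merged sites in TCF7L2, and 66 of these overlapped no input peak. That share of 73.3% (95% Wilson interval 63.4 to 81.4) compares with 57.0% (56.6 to 57.4) of 62968 sites in the whole genome. Of the remaining TCF7L2 sites, 17 overlapped a peak of 1 input and 7 had a peak in all 4 libraries. Input-free sites in TCF7L2 had a median width of 32 bases and 14 of 66 were wide. Sites with an input peak had a median width of 65 bases and 15 of 24 were wide. In the whole genome, the shares of wide sites were 21.6% without and 18.3% with an input peak, so the TCF7L2 sites shared with an input were the wider ones. These site classes rest on few peaks, and with the better-scoring 50% of each list 10 of 17 TCF7L2 sites were input-free (58.8%), against 57.0% of all sites. Peaks tied at the score of that cut were kept in the order of chromosome names, which favoured TCF7L2, so its site counts there may be too high.

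The input-free sites of TCF7L2 with the best mean rank by score in the pull-downs did not form 1 cluster. Of the first 5, 4 lay beyond the midpoint of the gene, and those at 138.4 and 142.2 kb lay close to each other. The first lay 142.2 kb after the start, from 114852126 to 114852247 (122 bases), with scores of 35 and 31 in the pull-downs. The next lay at 167.6 kb, from 114877497 to 114877681 (185 bases), with scores of 34 and 24. The third lay at 110.6 kb, from 114820520 to 114820613 (94 bases), with 48 and 18. Further sites were at 138.4 kb (114848387 to 114848444, scores 15 and 39) and at 34.5 kb (114744522 to 114744583, scores 20 and 26). All 5 were at least 58 bases wide, although most input-free sites were narrow. Their mean ranks ran from 27281.5 to 41368.5 (1 is the best), so even these were far from the top of the lists.

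Of the 7 sites of TCF7L2 listed in all 4 libraries, the one with the best mean rank lay 0.3 kb after the gene start. It spanned 114710253 to 114710362, with scores of 37 and 44 in the pull-down libraries and 11 and 43 in the inputs. The next lay at 60.7 kb, from 114770662 to 114770767, with scores of 25 and 55 in the pull-down libraries and 18 and 31 in the inputs. The others lay at 1.3, 11.3, 27.8, 146.6 and 212.8 kb after the start, the last of them close to the gene end.

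LEF1, the other DNA-binding partner of β-catenin among the 6, had all its gene-strand peaks between 35.6% and 39.8% of its length. It had 2 reproducible pull-down sites. One, of 13 bases, was listed in all 4 libraries (109046893 to 109046905), with scores of 45 and 67 in the pull-down libraries and 42 and 21 in the inputs. The other, of 15 bases, was input-free (109044624 to 109044638), with scores of 14 and 18. None of the LEF1 peaks on the gene strand was wide. On its opposite strand, 2 sites were found in both pull-downs and 0 of them were input-free.

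CTNNB1, which encodes β-catenin itself, had wide peaks in all 4 libraries, 2 of 4 and 2 of 2 in the pull-down libraries and 1 of 1 and 4 of 5 in the inputs. Of its 2 reproducible sites, 1 was input-free. It was 179 bases wide, from 41261833 to 41262011, with scores of 11 and 13. Both inputs listed a peak 4.8 kb after the start of the span used here, with scores of 32 and 23, where neither pull-down had one. That span is longer than the RefSeq gene, so the distance need not be that from the RefSeq start. This peak was chosen after its values were seen. The mean share of CTNNB1 was 0.298 ± 0.167 per 10000 in the pull-down libraries and 0.762 ± 0.596 in the inputs (SD, n = 2 each). The groups overlapped, and the exact permutation p was 0.667.

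APC, the scaffold of the destruction complex, had a site listed in all 4 libraries 102.1 kb after its start (112145259 to 112145288). Its scores were 40 and 98 in the pull-down libraries and 30 and 36 in the inputs, where it was the only gene-strand peak of the gene. An input-free site of 14 bases lay at 120.9 kb (112164131 to 112164144), with scores of 14 and 24. The opposite strand of APC held 6 and 5 peaks in the pull-downs, no fewer than the 3 and 5 on the gene strand.

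AXIN2, a destruction complex member that the pathway also induces, had a site in all 4 libraries 24.1 kb after its start (63533671 to 63533708). It scored 29 and 28 in the pull-down libraries and 11 and 29 in the inputs. An input-free site of 155 bases lay at 17.6 kb (63540069 to 63540223) and scored 10 and 11, the bottom of the lists. The best-scoring peak of the whole AXIN2 span was on the opposite strand, with scores of 170 and 195 in the pull-down libraries and 79 and 113 in the inputs. LGR5, the R-spondin receptor, had 1 reproducible site, from 71930941 to 71930955, with scores of 62 and 95 in the pull-down libraries and 17 in input replicate 2. It had 0 input-free sites.

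**Figure D5:**
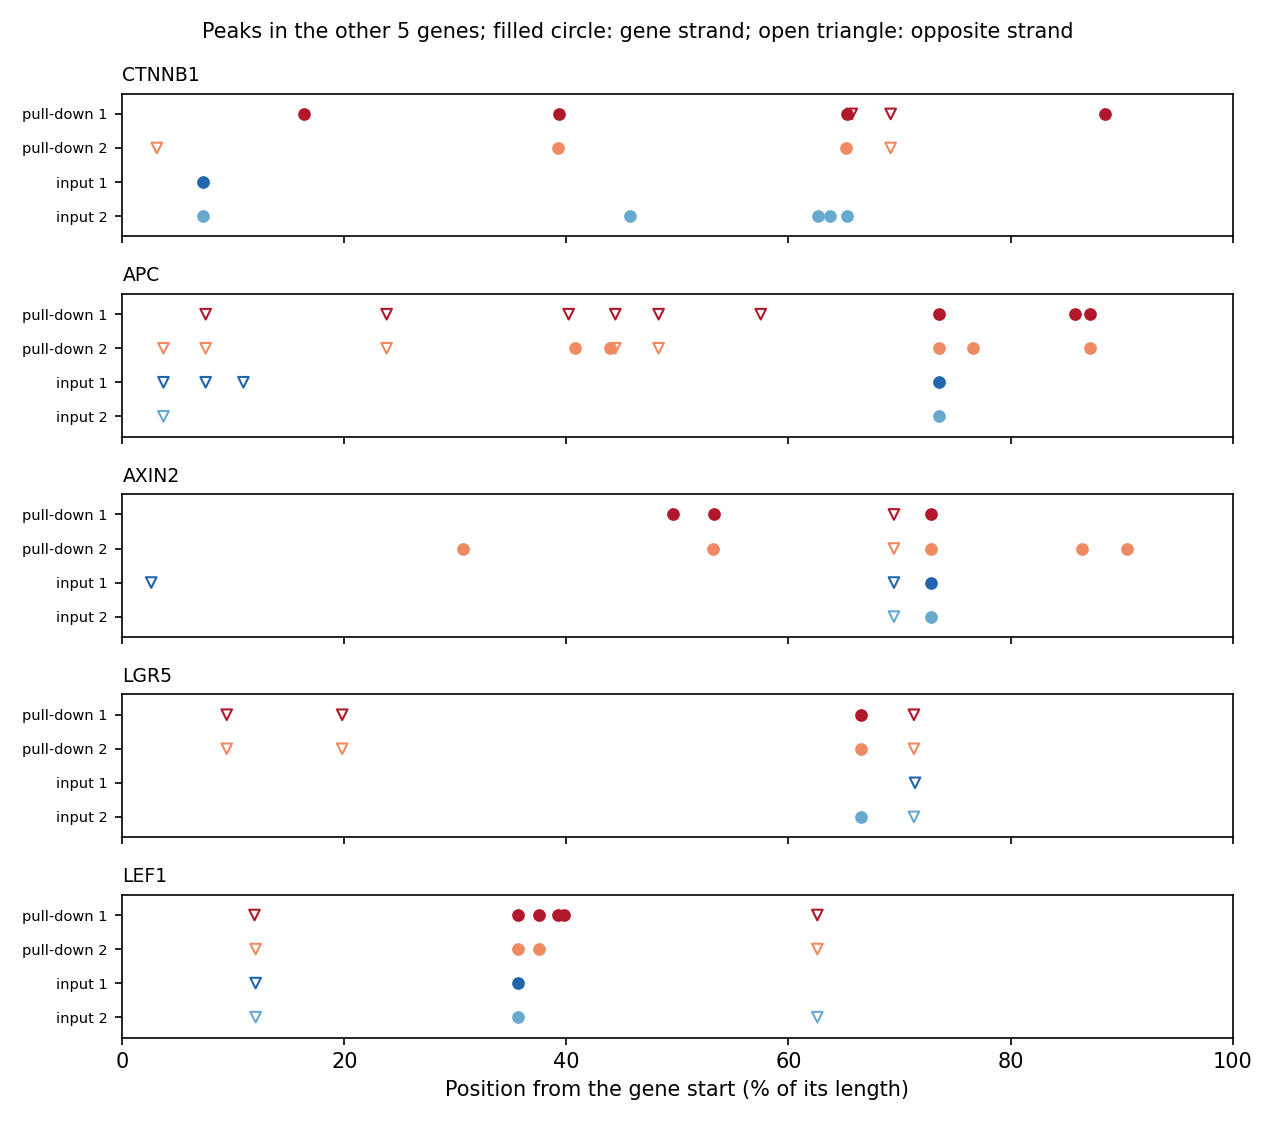
Peaks in CTNNB1, APC, AXIN2, LGR5 and LEF1 by position from the gene start in percent of its length (horizontal axis), 1 row per library, with filled circles on the gene strand and open triangles on the opposite strand. Each library has 0 to 5 gene-strand peaks per gene, and several positions recur in all 4 libraries on either strand.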

How the data were processed

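Peak lists of 4 HCT116 libraries were used, as deposited by the authors, with 1 list per library, so peaks were not called on pooled samples. STAR, featureCounts and the build GRCh38 are named, without versions, by the submitters' processing notes. The peak caller is not given in the sources used here, nor is its threshold. Each deposited peak has a score, a whole number from 10 upward, and the authors do not state its meaning. Positions are deposited in bases and printed here 1-based. They are taken as GRCh37, because 1214 of 278492 nuclear peaks end past a GRCh38 chromosome end and 0 past a GRCh37 end (chromosome lengths from general knowledge). No read counts were used, so depth is unknown and a longer list may reflect deeper sequencing.

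The genes, lists and tests were chosen with earlier results of these data known. The named-gene rule named all 6 genes and, per gene, up to 3 input-free sites (5 for TCF7L2) and up to 2 sites listed in all 4 libraries, by mean score rank in the pull-downs. Other Wnt pathway genes were listed for counting, but no annotation of GRCh37 was used, so they were not analysed here.

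Overlap meant at least 1 base on the same strand. Sites were merged peaks found in both pull-downs, and input-free sites overlapped no peak of either input. Where a list was cut by score, peaks tied at the cut were kept in the text order of chromosome names. Chromosome 10, which holds TCF7L2, came early in that order, so cut lists may hold too many TCF7L2 peaks. Shares of peaks were fitted with limma 3.58.1 in R 4.3.3 (lmFit, eBayes with a mean trend) as log2(peaks per 10000 + 0.1), with Benjamini-Hochberg adjustment at 0.05. The features were windows of 100 kb on 1 strand plus the 6 genes, so windows inside TCF7L2 were tested as well. Wilson intervals cover counting error only, and neighbouring peaks are not independent. Counts, overlaps and figures were made in Python 3.11.15 with SciPy 1.17.1. With 2 libraries against 2, the exact permutation test cannot go below 0.33. Pull-down and input libraries share replicate numbers, but the labels do not say that a number marks a shared lysate. Alternatives changed the value added, the minimum, the window size, centring, weights, list length, score, width, strand, block and replicates.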

Additional observations from a re-analysis of the deposited data

How the results depend on the processing

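The log2 ratio of the TCF7L2 share, 1.34, stayed positive in all alternatives but 2. Changing only the minimum, the window size or the block could not move this ratio, so those settings bear only on its p. Among the settings of list length, score and width, only narrow peaks alone kept a limma adjusted p under 0.05 (2.90, limma adjusted p = 0.0076). The ratio was -0.64 (limma adjusted p = 0.15) in lists of equal length and -0.37 (limma adjusted p = 0.56) among wide peaks alone. It was 1.16 (limma adjusted p = 0.095) in the better-scoring 50% of each list, and the cause was not tested. The median tested feature was at -0.64 in lists of equal length, -0.66 among wide peaks and -1.23 in the better-scoring 50%. Centring on the median tested window, which moves with the minimum, gave 2.59 (adjusted p = 0.0011). Without each library in turn it ran from 0.98 to 1.7, the lone library of a group being assumed to vary like the others. The replicate block left the ratio at 1.34 (SE 0.19, limma adjusted p = 5.6e-11) with 484 features called. With 4 libraries, the block leaves almost no spread for a single feature. That p therefore rests mainly on the spread pooled over features, and does not measure the spread of TCF7L2 between replicates. The correlation of same-numbered deviations over features was 0.0547, so the numbers were not taken as pairs.

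The number of features called, 467 of 598, was 1237 of 3228 and 110 of 124 at minimum means of 0.5 and 2 per 10000, and 12907 of 47780 with no minimum (11606 higher and 1301 lower), where fewer or more features were tested by construction. It was 213 in lists of equal length, 185 among narrow peaks alone, 727 on both strands and 301 after centring. Centring gave 172 higher and 129 lower, against 95 higher and 372 lower. Leaving out a library gave 359 to 570.

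Of the 90 reproducible TCF7L2 sites, 66 were input-free (73.3%). Lists of equal length left 4 sites, 1 of them input-free (25%, against 21.7% of all sites), and the better-scoring 50% left 17, with 10 input-free (58.8%, against 57.0%). With 1 input left out, 68 to 81 sites were input-free (75.6% to 90.0%, against 60.1% to 70.6% of all sites), the most without input replicate 2.

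The difference in the share of wide TCF7L2 peaks, -57.3 percentage points, was -40.3 with wide peaks from 30 bases, -28.0 from 100 bases, 1.68 in lists of equal length and -65.0 to -49.6 with a library left out. The difference in median position, 15.3% of the length, was 18.3 among narrow peaks, where the groups overlapped, 29.2 among wide peaks, 21.8 in lists of equal length and 11.6 to 19 with a library left out. The difference in the share on the gene strand, 4.44 points, was 22.9 among narrow peaks, -2.86 among wide peaks, -13.0 in lists of equal length and 1.38 to 7.49 with a library left out. Narrow TCF7L2 peaks on the gene strand numbered only 3 and 13 in the inputs, which limits the differences among narrow peaks. Read depth is unknown, and 0 to 5 peaks per library in the other 5 genes limit what they can show.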

Other observations

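On the strand opposite to the gene, the other 5 genes held 11 sites found in both pull-downs, 6 of them input-free and 3 listed in all 4 libraries. On their gene strands they held 9 such sites, 4 of them input-free and 3 listed in all 4 libraries. TCF7L2 had 5 sites on the opposite strand and 90 on its own. Of its 5 opposite-strand sites, 2 were input-free and 1 was listed in all 4 libraries.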
